A study of Mus musculus with 22 samples.

Results

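The genes described here are 32 genes of oligodendrocytes and of the myelin they make, picked by symbol out of the 29367 genes in the deposited count table. They were measured in 22 libraries of mRNA bound to HA-tagged ribosomes from the mouse optic nerve. All mice carried the ribotag allele, in which the ribosomal protein gene Rpl22 gains an HA tag after Cre recombination (strain B6J.129(Cg)-Rpl22tm1.1Psam/SjJ), together with a Cre transgene under a GFAP promoter, Tg (GFAP-Cre) 73.12Mvs/J on the B6.Cg background, and their genotype is otherwise labelled WT. The mice were adults, and all of them had received microbeads into the eye, which raise the intraocular pressure (IOP). Tissue was taken 7 or 30 days later from the optic nerve head (ONH), the unmyelinated part behind the eye, and from an equal length of the myelinated proximal optic nerve (ONP). There were 4 ONH and 4 ONP libraries at 7 days and 7 ONH and 7 ONP libraries at 30 days. Each library was a pool of 4 mice, 2 male and 2 female, and the study's methods state that ONH and ONP tissue was taken from the same mice. Uninjured nerves were not analysed here, so no value below is relative to a nerve with normal IOP. Total counts ran from 16292489 to 33307092 per library, and 3 counts, taken as the detection floor, correspond to 0.0897 to 0.191 CPM. CPM are counts relative to the total of the library after that total is scaled by a trimmed-mean (TMM) factor. The libraries are named by region, day and the number their column carries.

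Oligodendrocytes wrap central axons in myelin, a stack of tightly apposed membrane that is rich in galactolipids and built from a small set of proteins made in large amounts. Myelin basic protein (Mbp) and its neighbours seal the compacted membrane, surface proteins such as Mag and Nfasc hold the sheath to the axon and organise the node of Ranvier, and the transcription factors Sox10, Olig1, Olig2 and Myrf set up and maintain the program. In the mouse, retinal axons are unmyelinated in the ONH and become myelinated as they enter the ONP. The HA pulldown was aimed at astrocytes, and the Cre is driven by a GFAP promoter that is on from development. These counts alone cannot tell whether the myelin transcripts were on tagged ribosomes or were RNA of oligodendrocytes carried through the pulldown. Nor can they tell fewer cells of a type from less RNA per cell. The study reports that after microbeads HA staining overlapped the astrocyte marker SOX9 and not OLIG2 or NG2. It also reports, from PCR, that ONH pulldowns were enriched for astrocyte markers and not for those of other cell types. Those tests were not analysed here.

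For orientation, the 250 bases before the transcription start are shown for 4 members that were lower at 30 than at 7 days in the ONP (Mag, Cnp, Mog and Mobp) and for Olig2, the member whose fitted difference there was above 0. The sequences are from RefSeq on build GRCm38.p6, written 5′ to 3′ on the strand of the gene: Mag on the minus strand at chr7:30914864-30915113, Cnp on the plus strand at chr11:100574689-100574938, Mog on the minus strand at chr17:37023399-37023648, Mobp on the plus strand at chr9:120149492-120149741 and Olig2 on the plus strand at chr16:91225300-91225549. Capitals mark matches on either strand to CTGGNAC, the core letters of the Myrf motif with any base at N (GTNCCAG on the other strand), or to ACAAAG, the core letters of the Sox motif (CTTTGT on the other strand).
Mag: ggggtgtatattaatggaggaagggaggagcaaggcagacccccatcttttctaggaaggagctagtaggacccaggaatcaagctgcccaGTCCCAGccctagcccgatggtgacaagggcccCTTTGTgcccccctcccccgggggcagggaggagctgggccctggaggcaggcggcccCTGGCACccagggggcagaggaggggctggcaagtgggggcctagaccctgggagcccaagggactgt
Cnp: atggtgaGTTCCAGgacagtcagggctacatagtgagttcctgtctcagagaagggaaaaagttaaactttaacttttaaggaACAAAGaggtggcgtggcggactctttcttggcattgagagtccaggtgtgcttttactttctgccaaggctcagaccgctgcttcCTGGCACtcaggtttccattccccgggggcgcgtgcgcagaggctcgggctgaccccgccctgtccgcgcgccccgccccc
Mog: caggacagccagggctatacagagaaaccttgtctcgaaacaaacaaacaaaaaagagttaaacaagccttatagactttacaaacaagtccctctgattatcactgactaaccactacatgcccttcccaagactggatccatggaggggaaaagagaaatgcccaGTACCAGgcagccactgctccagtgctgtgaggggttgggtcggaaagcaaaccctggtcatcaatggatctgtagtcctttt
Mobp: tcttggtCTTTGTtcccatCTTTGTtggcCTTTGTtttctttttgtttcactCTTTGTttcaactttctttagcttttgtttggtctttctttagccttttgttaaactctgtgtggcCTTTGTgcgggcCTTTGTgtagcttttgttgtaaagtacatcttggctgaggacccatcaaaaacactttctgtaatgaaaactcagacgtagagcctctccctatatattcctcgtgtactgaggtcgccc
Olig2: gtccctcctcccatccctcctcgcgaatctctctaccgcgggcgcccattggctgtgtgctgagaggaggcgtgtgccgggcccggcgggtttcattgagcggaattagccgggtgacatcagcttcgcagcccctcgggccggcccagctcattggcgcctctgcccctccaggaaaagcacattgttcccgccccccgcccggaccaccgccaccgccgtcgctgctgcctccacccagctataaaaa
Mag and Cnp each held 2 matches to CTGGNAC and 1 to ACAAAG, Mog held 1 to CTGGNAC, Mobp held 6 to ACAAAG and Olig2 held none. The RefSeq table gave 29 promoters for 23 of the 32 members, in windows of 250 bases before to 50 after the start. CTGGNAC was found in 31% of them (9 of 29) against 19.3% of all 32851 promoters, and ACAAAG in 20.7% (6 of 29) against 18.7%. CAGCTG, an E-box of the kind Olig proteins bind, was found in 17.2% (5 of 29) against 16.3%. Mag entered the counts of CTGGNAC and ACAAAG with 2 overlapping windows that hold the same sites. By gene, CTGGNAC was found for 8 of 23 members. No difference from all promoters was tested, and all of these are matches of letters, not binding sites. Mbp, Fa2h, Car2, Enpp2, Trf, Sox10, Olig1, Myrf and Bcas1 had no entry in the table. The genes shown were picked and do not stand for all members. Mal, Cldn11, Nfasc, Cntn2, Ugt8a and Qdpr also fell in the ONP and had an entry, but held no match to CTGGNAC or ACAAAG. Hapln2 and Tmem125, which were not called there, held matches to CTGGNAC.

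All 32 genes were detected in every library. The lowest raw count of any member was 123, for Ninj2, a small membrane adhesion protein, and all 32 passed the filter on low counts in each comparison. The pulldown was also rich in astrocyte transcripts: Gfap, the astrocyte intermediate filament, lay between 8775 and 23068 CPM in the 22 libraries, and the 15 astrocyte genes examined summed to between 17298.5 and 41203 CPM. Levels of different genes were compared as TPM, computed from the counts and the union of each gene's annotated exons. That union was 8469 bases for Mbp, 3320 for Trf and 4218 for Gfap. It can be longer than the mRNA present, which lowers the TPM, so the order of genes is approximate. On this scale Trf, the iron carrier transferrin, had the second highest mean level of all genes at 12210, and Mbp ranked 5 at 8713. Qdpr, which recycles the tetrahydrobiopterin cofactor, followed at 3525, and Cnp, a phosphodiesterase of the myelin cytoplasmic channels, at 3419. Myrf, the membrane-bound factor that switches on myelin genes, was the lowest at 30.5 and ranked 4778. The median over libraries of the length-corrected ratio of Mbp to Gfap was 1.46 in the ONP at 7 days, 0.598 in the ONP at 30 days, 0.487 in the ONH at 7 days and 0.406 in the ONH at 30 days.

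Together the 32 genes made up more of the ONP libraries at 7 days than of any other group. Their summed level was 98934 ± 9972 CPM (SD, n = 4) in the ONP at 7 days, with single libraries between 92687 and 113795. In the ONP at 30 days it was 60429 ± 22144 CPM (SD, n = 7), and the libraries spread from 31345 through a median of 60111 to 98473. The ONH sum was 33530.5 ± 10266 CPM (SD, n = 4) for the earlier day. For the later day it was 32297 ± 11790.0 CPM (SD, n = 7). The 7-day ONP libraries therefore lay above every ONH library, and 1 of the 7 ONP libraries at 30 days, library 5, reached their range. Mbp alone supplied 37.6% to 40.8% of each group's sum and Trf 19.5% to 27.1%. Relative to the summed astrocyte genes, the members stood at 4.15 ± 1.14 (SD, n = 4) in the ONP at 7 days and 2.27 ± 1.61 (SD, n = 7) at 30 days, against 1.61 ± 0.815 (SD, n = 4) and 1.37 ± 0.656 (SD, n = 7) in the ONH.

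**Figure D1:**
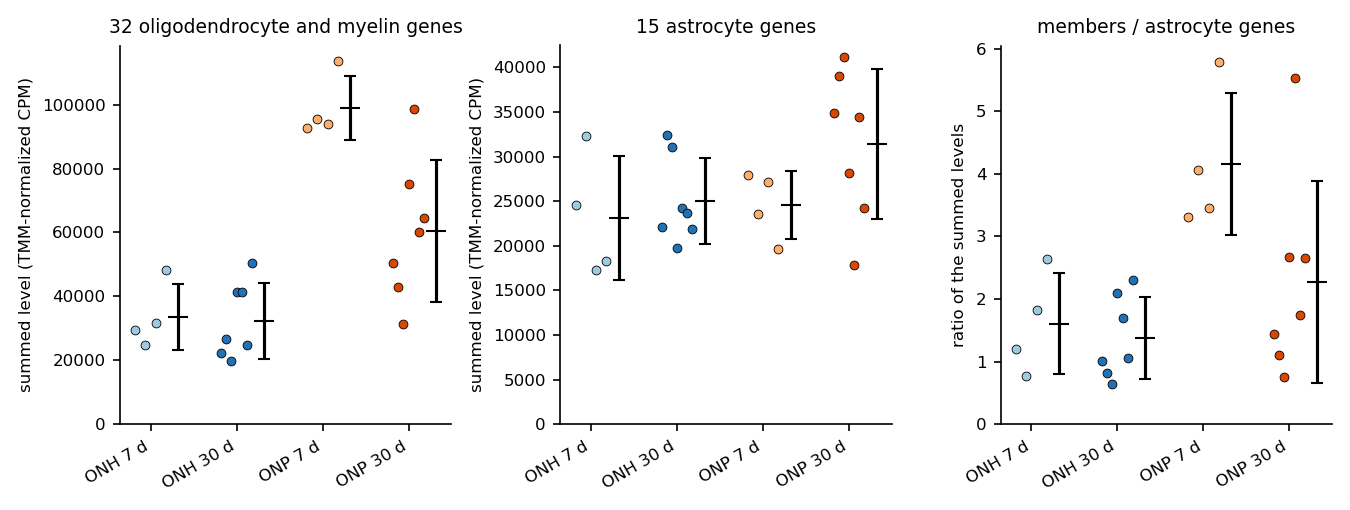
Summed level of the 32 genes (left, CPM), summed level of the 15 astrocyte genes (middle, CPM) and their ratio (right) in each library, by region and day. Points are libraries and bars give the mean ± SD (n = 4 at 7 days, n = 7 at 30 days); the 4 ONP libraries at 7 days lie between 92687 and 113795 CPM, while the 7 at 30 days spread from 31345 to 98473 CPM.

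Within each group, most members shared the same highest library and most shared the same lowest library. Whether this agreement differed between the days, whose groups differ in size, was not tested. In the ONP at 30 days, library 3 was the lowest for 30 of the 32 genes and library 5 the highest for 29. In the ONH at 30 days, library 7 was the highest for 28 and library 3 the lowest for 24. In the ONP at 7 days, library 6 was the highest for 27, while the lowest was library 1 for 19, library 5 for 7 and library 2 for 6. In the ONH at 7 days, library 6 was the highest for 19 and library 5 for 11, and library 3 was the lowest for 18 and library 1 for 11. The median coefficient of variation of the members was 12.6% in the ONP at 7 days and 34.1% in the ONP at 30 days, and it was 38% and 36.8% in the ONH at 7 and 30 days. The astrocyte sum ran the other way in the ONP at 30 days, where it was highest in library 3 at 41203 CPM and lowest in library 5 at 17787 CPM, and CPM values of a library share its total.

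**Figure D2:**
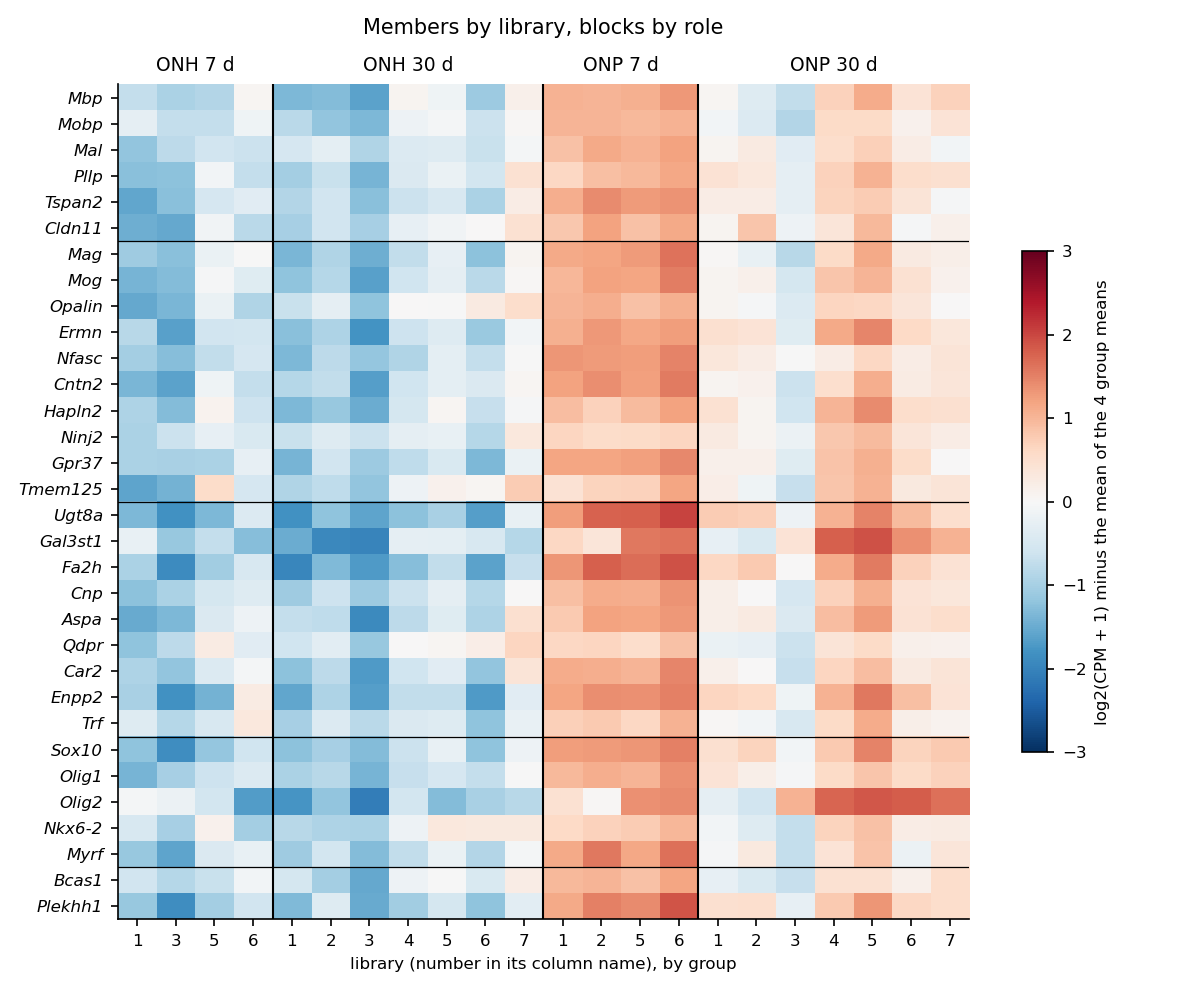
Level of each of the 32 genes (rows, grouped by role) in each of the 22 libraries (columns, grouped by region and day), as log2(CPM + 1) minus the mean of the 4 group means. The 4 ONP libraries at 7 days are high in nearly all rows, the 11 ONH libraries are low, and the 7 ONP libraries at 30 days range between, with library 3 the lowest for 30 genes and library 5 the highest for 29.

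The first comparison asked how the myelinated ONP differed from the unmyelinated ONH at 7 days. With edgeR, 31 of the 32 members were higher in the ONP, where 6.81% of all 14752 genes tested were called higher. None was lower, a call made for 6.34% of all genes. Their median difference was 1.88 on the log2 scale, from 1.07 (Trf) to 2.87 (Ugt8a), against a median of -0.07 over all genes. The 4 ONP libraries lay above the 4 ONH libraries for 31 members, an arrangement found for 11.8% of all genes. Tmem125, a membrane protein gene, was the member not called (1.25 ± 0.43 SE, adjusted p = 0.0815). All 6 compact myelin genes, 9 of 10 surface and node genes, all 9 enzyme and transport genes, all 5 transcription factor genes and both other mature oligodendrocyte genes rose.

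The largest differences were in Ugt8a, Fa2h and Plekhh1. Ugt8a (chr3:125865271-125938619), which adds galactose to ceramide and so makes the main myelin glycolipid, stood at 69.8, 50.3, 69.0 and 134 CPM in the ONH and at 428, 614, 619 and 728 CPM in the ONP at 7 days. The groups were far apart, with a log2 difference of 2.87 ± 0.31 (SE, adjusted p = 0.000302). Fa2h (chr8:111345135-111393824), which hydroxylates the fatty acids of those lipids, had 64.5, 33.2, 60.8 and 89.997 CPM in the ONH and 315, 437, 404 and 473 CPM in the ONP (2.70 ± 0.28 SE, adjusted p = 0.000282). Plekhh1 (chr12:79029163-79081655), a gene of mature oligodendrocytes, had 29.0, 17.01, 31.5 and 43.3 CPM in the ONH and 145, 188, 177 and 245 CPM in the ONP (2.63 ± 0.28 SE, adjusted p = 0.000302). In all 3 genes the lowest ONP library was above the highest ONH library.

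The most abundant gene of each role showed the same direction. Mbp had 11285, 9675, 10122 and 19363 CPM in the ONH and 38662, 37593, 38962 and 46322 CPM in the ONP at 7 days (1.66 ± 0.23 SE, adjusted p = 0.00117). Mag (chr7:30899176-30914873), a sialic acid binding protein on the sheath surface facing the axon, had 867, 760.3, 1590.3 and 1802 CPM in the ONH and 4033, 4142, 4413 and 5668 CPM in the ONP (1.85 ± 0.28 SE, adjusted p = 0.00195). Trf (chr9:103204001-103230444) had 8486, 6109, 7924 and 13858 CPM in the ONH and 18288, 19099, 17041 and 22772 CPM in the ONP (1.07 ± 0.24 SE, adjusted p = 0.0139). None of these groups overlapped, and library 6 was the highest in both regions for each gene. Olig1 (chr16:91269772-91271933), a helix-loop-helix factor of the lineage, rose from between 207 and 405 CPM to between 1068 and 1394 CPM (1.92 ± 0.21 SE, adjusted p = 0.000396). Bcas1, a cytoplasmic protein of oligodendrocytes that are making myelin, rose from between 258 and 444 CPM to between 855 and 1057 CPM (1.51 ± 0.19 SE, adjusted p = 0.000647). Leaving out 1 library at a time left 29 to 31 members called. The call of Qdpr was lost without ONH library 3 or ONP library 1, 2, 5 or 6, and that of Olig2 without ONH library 3 or 5 or ONP library 1, 5 or 6.

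At 30 days the ONP was again above the ONH, with more overlap between libraries. This comparison shares no library with the one at 7 days, and each group enters 1 comparison of regions and 1 of days. edgeR called 26 of the 32 members higher in the ONP and none lower, where 20% of all 15133 genes tested were called higher and 21.8% lower. The median member difference was 0.97 on the log2 scale, from 0.13 (Qdpr) to 2.54 (Olig2), against 0.01 over all genes, and all 32 fitted differences were positive. Only Nfasc, Plekhh1, Sox10, Enpp2, Ugt8a and Fa2h had every ONP library above every ONH library at 30 days, 6 of 32 members where 7.09% of all genes showed this. By role, 5 of 6 compact myelin genes, 8 of 10 surface and node genes, 8 of 9 enzyme and transport genes, 4 of 5 transcription factor genes and 1 of 2 other genes rose. The 6 not called in this fit, which takes the libraries as unpaired, were Mobp, Opalin, Tmem125, Qdpr, Nkx6-2 and Bcas1. With the library number as a replicate block, Mobp, Tmem125, Nkx6-2 and Bcas1 were called as well, 30 members in all. Nothing stated that libraries of the same number came from the same pool of mice.

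Olig2 (chr16:91225457-91228677), the helix-loop-helix factor that specifies the lineage, had the largest difference at 30 days. Its ONH levels were 8.67, 13.5, 6.83, 21.4, 12.3, 15.8 and 17.4 CPM in libraries 1 to 7, and its ONP levels were 26.0, 21.1, 66.0, 109.7, 118, 115 and 102 CPM. ONP library 2 lay just below the highest ONH value, library 1 just above it and the other 5 far above it, giving 2.54 ± 0.39 (SE, adjusted p = 0.000114). Fa2h ran from 31.5 through a median of 49.9 to 77.5 CPM in the ONH and from 128 through 205 to 374 CPM in the ONP (2.10 ± 0.25 SE, adjusted p = 1.44e-05). Gal3st1 (chr11:3983636-3999326), which sulfates galactolipid to sulfatide, ran from 11.1 through 25.2 to 38.5 CPM in the ONH and from 34.0 through 97.8 to 179.7 CPM in the ONP (2.01 ± 0.40 SE, adjusted p = 0.000986). The Fa2h groups were separate, and those of Gal3st1 overlapped only through ONP library 2.

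Mbp ran from 6093 through a median of 8797 to 20886 CPM in the ONH at 30 days and from 11125 through 24690.5 to 40056 CPM in the ONP. The ranges overlapped, and the difference of 0.96 ± 0.34 (SE, adjusted p = 0.0319) was no longer called without ONH library 1, 2, 3 or 6 or ONP library 4, 5 or 7 (adjusted p = 0.0529 to 0.0668). Mag ran from 657 through 969 to 1934 CPM in the ONH and from 1023 through 2043 to 4013 CPM in the ONP (1.004 ± 0.30 SE, adjusted p = 0.0126). Trf ran from 4813 through 8198 to 9525 CPM and from 7908 through 11976 to 23999.6 CPM (0.88 ± 0.23 SE, adjusted p = 0.00554). Mag and Trf overlapped in the same way, with ONP library 3 the lowest of its group. Olig1 rose from 205 through 332 to 535 CPM to 531 through 809 to 969 CPM (1.17 ± 0.18 SE, adjusted p = 0.000154), its groups meeting at a single library each. Bcas1 ran from 161 through 341 to 548 CPM in the ONH and from 288 through 519.6 to 672 CPM in the ONP (0.49 ± 0.26 SE, adjusted p = 0.133, and 0.66 with adjusted p = 0.0494 without ONH library 7). With the library number as a replicate block it was called (0.53, adjusted p = 0.000913). Counted by library, 8 members of ONP library 3 and 31 of ONP library 5 were above every ONH library at 30 days.

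**Figure D3:**
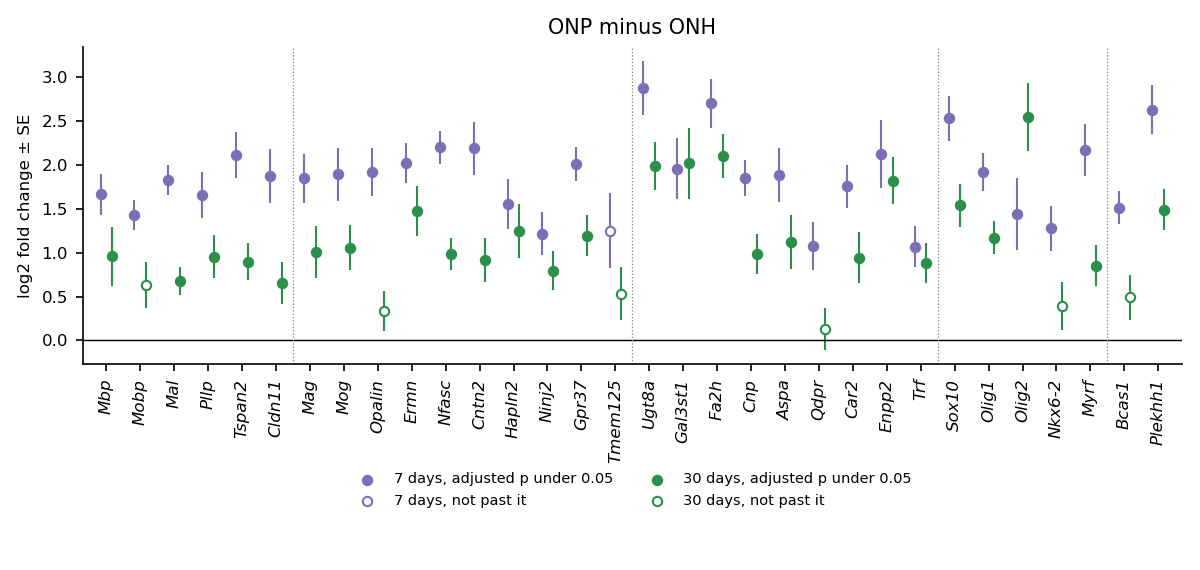
Difference ONP minus ONH of each of the 32 genes at 7 and at 30 days (log2 scale, edgeR estimate ± SE, grouped by role), with filled points for an adjusted p under 0.05. All 64 estimates lie above 0, with medians of 1.88 at 7 days and 0.97 at 30 days. Of them 31 and 26 are called, where 6.81% and 20% of all genes were called higher.

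Retinal photoreceptor transcripts differed between the regions in the opposite sense. Of the photoreceptor genes, 8 of 9 tested were lower in the ONP at 7 days and 10 of 10 at 30 days, where 6.34% and 21.8% of all genes were lower. Their summed level was 209, 236, 1798 and 6099 CPM in ONH libraries 1, 3, 5 and 6 at 7 days and 306, 159.9, 309, 2662, 524, 355 and 172 CPM in ONH libraries 1 to 7 at 30 days. In the ONP it was between 24.9 and 165 CPM at 7 days and between 28.6 and 76.6 CPM at 30 days. Without the 3 ONH libraries over 1000 CPM, 31 members were called higher in the ONP at 7 days, with Olig2 lost and Tmem125 gained, and 25 at 30 days, with Cldn11 lost. Of the 15 astrocyte genes, 4 were higher in the ONP at 7 days, led by the water channel Aqp4 (1.65 ± 0.22 SE, adjusted p = 0.00106), and at 30 days 7 were higher, led by the connexin Gjb6 (1.89 ± 0.24 SE, adjusted p = 2.54e-05), and S100b was lower (-0.76 ± 0.15 SE, adjusted p = 0.000833). Of all genes 6.81% were higher at 7 days and 20% at 30 days.

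The next comparison asked what happened to these genes in the ONP between 7 and 30 days after microbeads. With edgeR, 19 of the 32 members fell and none rose, where 9.21% of all 15491 genes tested fell and 7.82% rose. The median member difference was -0.77 on the log2 scale, from -1.23 (Myrf) to 0.35 (Olig2), against -0.01 over all genes, and 31 of 32 estimates were below 0. For 12 members every ONP library at 30 days lay below every ONP library at 7 days, which held for 5.79% of all genes. The compact myelin genes fell in 4 of 6 cases (Mobp, Mal, Tspan2 and the tight junction gene Cldn11), the surface and node genes in 6 of 10 (Mag, Mog, Opalin, Nfasc, Cntn2 and Gpr37) and the enzyme genes in 5 of 9 (Ugt8a, Fa2h, Cnp, Qdpr and the carbonic anhydrase gene Car2). Among the transcription factors Myrf and Olig1 fell, and both Bcas1 and Plekhh1 fell. The calls of Cldn11, Cnp and Qdpr were the least stable to the omission of single libraries. When each of the 11 libraries was left out in turn, Cldn11 and Qdpr lost the call 9 times and Cnp 8 times, and all 3 lost it when libraries were scaled by size only and when every gene of 1 count was kept.

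Myrf (chr19:10208272-10240748) had 139, 189.6, 142 and 199.5 CPM in the ONP at 7 days against 60.9, 77.0, 37.6, 83.0, 114, 55.7 and 80.8 CPM in libraries 1 to 7 at 30 days. The groups did not overlap, and the difference of -1.23 ± 0.23 (SE, adjusted p = 0.00546) was the largest of the members. Nfasc (chr1:132564690-132741797), the neurofascin gene, whose glial form joins the sheath to the axon beside the node, had 359.8, 349, 344 and 404 CPM at 7 days against 181, 166, 142, 166, 220.4, 168 and 187 CPM at 30 days. It had the smallest standard error of the members, with a difference of -1.08 ± 0.11 (SE, adjusted p = 0.000351). Mag had 4033, 4142, 4413 and 5668 CPM at 7 days against 1861, 1562, 1023, 2728, 4013, 2179 and 2043 CPM at 30 days (-1.08 ± 0.28 SE, adjusted p = 0.0229). Its groups were separate by a small gap, library 5 at 30 days being close to library 1 at 7 days, and without ONP library 6 at 7 days the adjusted p was 0.0799.

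Olig1 fell from between 1068 and 1394 CPM to a median of 809 CPM, with 531 and 969 as the lowest and highest (-0.66 ± 0.15 SE, adjusted p = 0.0138). Bcas1 fell from between 855 and 1057 CPM to a median of 519.6 CPM, with 288 and 672 as the lowest and highest (-0.95 ± 0.22 SE, adjusted p = 0.0137). Both genes were separate between the days, and both lost the call without ONP library 6 at 7 days (adjusted p = 0.0606 and 0.0512). The most abundant members were not called. Mbp had 38662, 37593, 38962 and 46322 CPM at 7 days against 19469, 14376, 11125, 30351, 40056, 24690.5 and 30142 CPM at 30 days, with only library 5 inside the 7-day range (-0.76 ± 0.29 SE, adjusted p = 0.0943, and -0.90 with adjusted p = 0.0304 without library 5). Trf, from between 17041 and 22772 CPM at 7 days to a median of 11976 CPM at 30 days, was likewise not called with all libraries (-0.54 ± 0.25 SE, adjusted p = 0.162) and was called without library 5 (-0.71, adjusted p = 0.0173). The other members not called ranged from -0.63 (Sox10) through -0.11 (Gal3st1) to 0.35 (Olig2).

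Olig2 had the highest estimate of the 32 members and was not called. Its library values were 43.8, 32.3, 83.7 and 86.1 CPM in the ONP at 7 days and 26.0, 21.1, 66.0, 109.7, 118, 115 and 102 CPM at 30 days. The groups overlapped widely (0.35 ± 0.47 SE, adjusted p = 0.65).

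**Figure D4:**
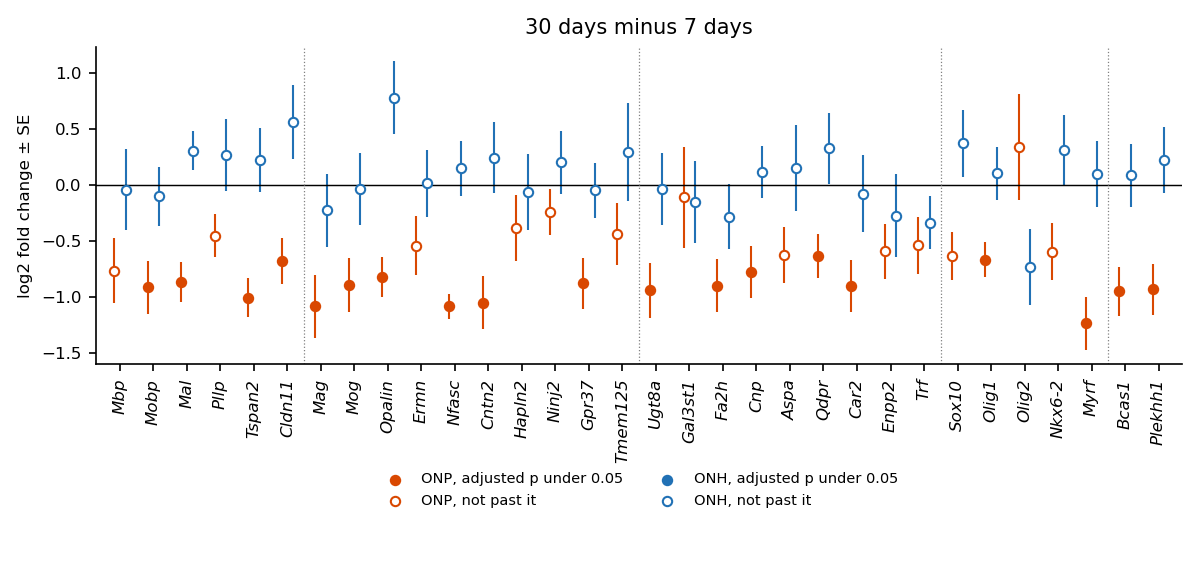
Difference 30 minus 7 days of each of the 32 genes in the ONP and in the ONH (log2 scale, edgeR estimate ± SE, grouped by role), with filled points for an adjusted p under 0.05. In the ONP 31 estimates lie below 0 with a median of -0.77 and 19 are called, where 9.21% of all genes were called lower. In the ONH the estimates lie around 0 with a median of 0.11 and none is called, where 0% of all genes were called.

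The count of 19 depended on single libraries. It was 6 without ONP library 6 at 7 days, 12 without ONP library 2 at 7 days, 27 without ONP library 5 at 30 days and 10 when all 4 groups shared the fit, while the median difference stayed between -0.88 and -0.65 in all settings run. The number of all genes that fell moved in the same direction, from 1427 to 756, 984, 1537 and 627 in the same order. ONP library 1 at 30 days had all 32 members below every 7-day ONP library and library 5 had 12. Other cell types' genes moved over the same interval. Of 12 endothelial and mural genes, 6 fell, led by Pecam1 (-2.70), and none rose, where 9.21% and 7.82% of all genes did. Their sum was 505.5, 514.5, 442 and 554 CPM in ONP libraries 1, 2, 5 and 6 at 7 days and 277, 254, 298, 274, 337, 200.2 and 238 CPM in libraries 1 to 7 at 30 days, with Vtn the most abundant. None of 12 microglia and macrophage genes was called, but their sum was 2947, 3482, 2550.2 and 4221 CPM at 7 days against 622, 519, 445, 1982, 5857, 441 and 7540 CPM at 30 days, with Ctss the most abundant. Of 10 axonal genes, the neurofilament subunits Nefh, Nefl and Nefm fell and Sncg, a synuclein, rose (1.87). Nefh lay between 2.48 and 6.13 CPM at 7 days and between 0.0487 and 0.759 CPM at 30 days, around the detection floor. The axonal sum was 231, 257, 181 and 346 CPM at 7 days against 125, 102, 82.5, 147, 262, 118 and 157 CPM at 30 days, with Tubb3 the most abundant, and every endothelial, microglial and axonal gene had at least 1 count in the ONP at each day. Among 15 astrocyte genes S100b (0.62 ± 0.13 SE, adjusted p = 0.00759) and Gjb6 (1.18 ± 0.32 SE, adjusted p = 0.0265) rose and none fell, none of 10 fibroblast and meningeal genes was called, and Dhh and Cdh19 fell of 7 Schwann cell genes, Gnat1 of 6 photoreceptor genes and Krt14 of 6 keratin genes. Without the ONP libraries of over 4000 CPM of microglial genes, 21 members fell, and the part of the other cell types in the result was not tested.

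In the ONH between 7 and 30 days no member was called by edgeR, DESeq2 or limma-voom, where edgeR called 0% of all 15668 genes and DESeq2 called 1.56% of its 17929 higher and 0.931% lower. At an unadjusted p under 0.05, which 7.1% of all genes passed as higher, 1 member passed by edgeR: Opalin, a sialylated membrane protein of the myelin paranode, ran between 45.9 and 117 CPM at 7 days and from 57.8 through 132 to 193 CPM at 30 days (0.78 ± 0.32 SE, adjusted p = 0.311). The member estimates lay between -0.73 (Olig2) and 0.78, with a median of 0.11, and 19 of 32 were above 0. Mbp, between 9675 and 19363 CPM at 7 days and between 6093 and 20886 CPM at 30 days, had an estimate of -0.04 ± 0.36 (SE, adjusted p = 0.97). The corresponding values were -0.22 ± 0.33 for Mag, -0.33 ± 0.24 for Trf, 0.11 ± 0.24 for Olig1 and 0.09 ± 0.28 for Bcas1. The median moved to 0.47, with 28 members above 0, without the 3 ONH libraries of over 1000 CPM of photoreceptor genes, and to -0.06, with 12 above 0, without ONH library 7 at 30 days. Without ONH library 3 at 7 days it was -0.01, with 15 above 0. No member was called in any of these fits.

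Whether the change over time differed between the regions was tested as an interaction, the ONP change minus the ONH change. edgeR called 2 members, both lower, where 0.394% of all 16748 genes were called lower and 0.149% higher. The median member interaction was -0.84 on the log2 scale against 0.01 over all genes, and 30 of 32 estimates were below 0. Nfasc, which fell in the ONP as above, ran between 58.7 and 100.3 CPM in the ONH at 7 days and from 55.3 through 82.9 to 141 CPM at 30 days, giving an interaction of -1.23 ± 0.28 (SE, adjusted p = 0.0461). Mal (chr2:127633226-127656695), a proteolipid of membrane rafts that sorts proteins to myelin, had 1679.6, 2023, 1889.8 and 2113 CPM in the ONP at 7 days and 969, 1106, 721, 1319, 1499, 1078 and 861 CPM at 30 days. Its ONH levels were 404, 536, 618 and 585 CPM at 7 days and ran from 489.7 through 687 to 883 CPM at 30 days, and its interaction was -1.17 ± 0.25 (SE, adjusted p = 0.0328). Every ONP library at 30 days was below every 7-day ONP library for Mal, and its ONH groups overlapped. Nfasc lost its call in 16 of the 22 omissions of 1 library and Mal in 14. Both were lost in those 14 (ONP libraries 1, 2, 5 and 6 and ONH libraries 1 and 3 at 7 days, ONP libraries 1, 2, 3, 6 and 7 and ONH libraries 2, 4 and 5 at 30 days), and Nfasc alone without ONP library 4 or ONH library 6 at 30 days. Other settings moved the count both ways. Without the photoreceptor-rich ONH libraries 7 members were called. None was called without the libraries of over 4000 CPM of microglial genes, by library size only or with every gene of 1 count kept. Nfasc alone was lost with RLE factors, TMM factors without the members, mitochondrial genes left out or limma-voom quality weights. Opalin had -1.60 ± 0.39 (SE, adjusted p = 0.0598) by edgeR and an adjusted p of 0.0118 by DESeq2. For the other 29 members neither edgeR nor DESeq2 called a difference between the 2 regions' changes, with Mbp at -0.72 ± 0.49 (SE, adjusted p = 0.593).

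Of 26 further oligodendrocyte genes, 18 were higher in the ONP at 7 days and 16 at 30 days, where 6.81% and 20% of all genes were. Anln, an actin-binding scaffold of the sheath, led them (2.95 and 2.30). Sec11c was lower at 30 days (-0.48 ± 0.14 SE, adjusted p = 0.0126), a call made for 21.8% of all genes. Between 7 and 30 days in the ONP 8 of the 26 fell and none rose, with a median of -0.60, where 9.21% of all genes fell and 7.82% rose. Gsn, the actin-severing protein gelsolin, fell most (-1.19 ± 0.31 SE, adjusted p = 0.0221), and the lipocalin gene Apod had -0.49 ± 0.29 (SE, adjusted p = 0.266). Of 19 genes of sphingolipid and galactolipid metabolism, 8 were higher in the ONP at 7 days and none lower, where 6.81% and 6.34% of all genes were. At 30 days 6 were higher and 3 lower (median 0.21), where 20% and 21.8% of all genes were, so that these counts lay near the background. In the ONP 7 of the 19 fell by 30 days, where 9.21% of all genes did. Those that fell included Cers2, which makes very long chain ceramides (-0.75 ± 0.15 SE, adjusted p = 0.00694), and Degs2 (-2.23 ± 0.46 SE, adjusted p = 0.00818).

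**Figure D5:**
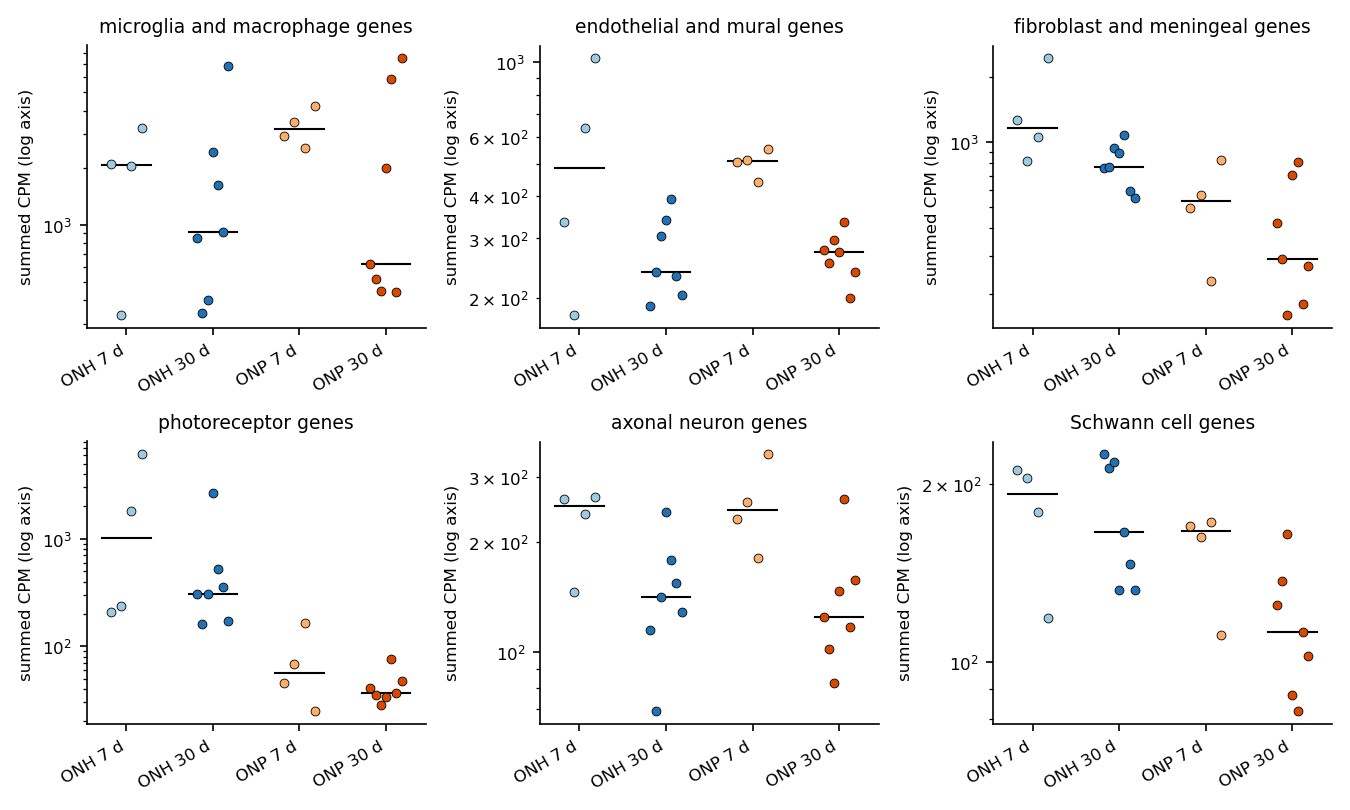
Summed level of the genes of 6 other cell types in each library by region and day (CPM, log axis), with points for libraries and a line at the median of each group. Photoreceptor genes are higher in the ONH, reaching 6099 CPM, endothelial genes in the ONP lie between 442 and 554 CPM at 7 days and between 200.2 and 337 CPM at 30 days, and microglial genes spread from 441 to 7540 CPM among the ONP libraries at 30 days.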

How the data were processed

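Ribosome-bound mRNA of 22 pools of 4 mice was sequenced from poly(A) cDNA (Smart-Seq HT, which keeps no strand, from 3.95 to 37.4 ng of RNA), so overlapping genes cannot be told apart. The authors deposited whole-number counts per gene, made with STAR 2.6.1d and Salmon 0.14.2 on mm10 per the submitters' processing notes, and a log2 table of variance-stabilised values (DESeq2 1.34.0, R 4.1.0), which was not used. All libraries were prepared and sequenced together, and no batch is labelled. The 4 groups were region by day, and every pool is a separate library. Library pairs of a group differed beyond sampling noise, with chi-square per degree of freedom of 19.4 to 228 over genes of 20 summed counts or more.

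The main test was edgeR 4.0.16 (R 4.3.3), quasi-likelihood, with TMM factors, its filter on low counts and Benjamini-Hochberg adjustment over all genes tested, called at 0.05. Each pair of groups was fitted alone and the interaction over all 4. Differences are ONP minus ONH, or 30 minus 7 days, on the log2 scale, and CPM are TMM-normalised. DESeq2 1.42.0, limma 3.58.1, other scalings and filters and omission of each library were alternatives, and the code was tested on simulated data. Of the gene IDs, 29351 of 29367 matched GENCODE M21 (GRCm38), which gave coordinates and exon lengths.

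The members and lists were chosen with earlier results of these data known. Values are given for the 3 called members with the largest change in each direction and the most abundant member of each of the 5 roles, and other lists by their called genes with the largest change, their 2 most abundant genes and genes at 0. Other genes named were chosen after their values were seen. Floors cover counting error only. A few genes of the lists are not reported here by name.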

Additional observations from a re-analysis of the deposited data

Results flagged for a closer look

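In groups of 4 to 10 libraries, a value was marked when its gap to the nearest other value took an unusually large part of the group's range. Chance marks about 1 in 20 groups, or 6.6 of the 132 examined, and 13 were marked. Among the myelin genes, ONP library 6 at 7 days stood above the other 3 for Mbp (46320 CPM, next 38960), for the sum of the 6 compact myelin genes (58120 CPM) and for the sum of all 32 members (113800 CPM). ONH library 6 at 7 days stood above its group for Mbp (19360 CPM, next 11290), and ONH library 7 at 30 days for Ugt8a (153.8 CPM, next 90.08).

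Among the genes of other cell types, ONH library 7 at 30 days was the highest for the microglial sum (6857 CPM, next 2406), and ONH library 4 at 30 days for the photoreceptor sum (2662 CPM, next 524). ONP library 5 at 30 days was the highest for the axonal sum (261.7 CPM, next 157) and the photoreceptor sum (76.59 CPM, next 47.63). ONP library 6 at 7 days was the lowest for the Schwann cell sum (110.7 CPM, next 162.6). The keratin sum was highest in ONH library 1 at 7 days (246.4 CPM), ONH library 1 at 30 days (22.73 CPM) and ONP library 1 at 30 days (37 CPM).

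The region by day interaction was called by edgeR for Nfasc (-1.2289, adjusted p = 0.0461) and Mal (-1.1691, adjusted p = 0.0328), with the limits given above.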

How the results depend on the processing

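Among the recomputed counts and sums 99 moved by over 1.5 times or by more than the spread between libraries, and for the named genes 832 kept direction and call, 54 lost the call, 6 gained it and 14 changed sign. The members' median kept its sign in every setting run for the ONP days, both region comparisons and the interaction. Scaling by library size alone moved the median of all genes by 0.114 (ONP days), -0.114 (regions at 7 days) and 0.153 (interaction). The cause of the values below was not tested. For 30 against 7 days in the ONP, all genes called higher were 2054 with DESeq2, 1934 by library size only and 562 with all 4 groups in the fit, where 627 were lower and 10 members were lower. For the ONH, genes called higher and lower were 279 and 167 with DESeq2, 201 and 91 with all 4 groups, 3 and 25 without photoreceptor-rich libraries, and 2 were lower with every gene of 1 count. For the regions at 7 days they were 1554 and 1656 with DESeq2, 1798 and 1987 with all 4 groups, and 631 and 471 without microglia-rich libraries. For the interaction they were 175 and 234 with DESeq2, 165 and 276 without photoreceptor-rich libraries and 13 and 21 without microglia-rich libraries, 7 were higher with limma-voom quality weights and 11 with limma-voom without them, and 32 and 33 were lower by library size only and with every gene of 1 count. Members with a lower interaction were 1 with quality weights, RLE factors, TMM factors without the members or mitochondrial genes left out, 0 by library size only, with every gene of 1 count or without microglia-rich libraries, and 7 without photoreceptor-rich libraries. The photoreceptor, microglia and GC settings were chosen after seeing the data.

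Nothing stated that libraries of 1 number come from 1 pool of mice. At 30 days the deviations of same-numbered ONH and ONP libraries correlated at 0.077 to 0.471, and 3 of 7 correlated best with their own number. With the number as a replicate block, 30 members were called higher in the ONP, Mobp, Tmem125, Nkx6-2 and Bcas1 (0.53, adjusted p = 0.000913) being added and none lost. In the interaction the block by limma-voom duplicateCorrelation gave 3 members and 138 genes lower, and limma-voom without it gave the same 3, Opalin added. At 7 days the labels number replicates otherwise than the columns. For the column numbers 1, 5 and 6, which occur in both regions, the correlations were 0.021, 0.012 and 0.146, each the highest with its own number. Over those 6 libraries, a block chosen after seeing the data gave 27 members higher in the ONP, and 475 genes higher and 404 lower; with no block they were 26, 519 and 394.

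Leaving out each library in turn gave 6 to 27 members lower in the ONP over time, with 683 to 1677 genes higher and 756 to 1537 lower; 0 to 123 and 0 to 44 genes in the ONH; 631 to 1243 and 471 to 1136 genes between regions at 7 days; and 0 to 5 members, 3 to 96 genes higher and 14 to 222 lower in the interaction. In the ONH over time, uncalled estimates changed sign: without the photoreceptor-rich libraries Mbp was 0.0801 and Mag 0.4021, without the microglia-rich library Olig1 was -0.0516 and Bcas1 -0.0613, and over single omissions Mbp ran from -0.2251 to 0.2462, Mag from -0.4295 to 0.0088, Olig1 from -0.0516 to 0.2661 and Bcas1 from -0.0613 to 0.2714.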

Other observations

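Genes of earlier stages of the oligodendrocyte lineage were measured in the same libraries. Of 9 oligodendrocyte precursor genes, none fell in the ONP between 7 and 30 days and Lhfpl3 rose (0.55 ± 0.11 SE, adjusted p = 0.00734 by edgeR), where 9.21% of all genes fell and 7.82% rose, so that the counts lay near the background. Their median was 0.21 against -0.77 for the 32 members. Lhfpl3 had 44.9, 43.4, 51.9 and 38.3 CPM at 7 days and between 57.0 and 75.1 CPM at 30 days. Pdgfra, the growth factor receptor of precursors, had 63.9 to 78.5 CPM at 7 days and 70.1 to 108 CPM at 30 days (0.33 ± 0.13 SE, adjusted p = 0.0949). It was the highest of the list in mean CPM but not per exon length, where its mean TPM was 20.05 against 35.82 for Lhfpl3. The precursor genes were higher in the ONP than in the ONH for 4 of 9 at 7 days and 6 of 9 at 30 days, where 6.81% and 20% of all genes were. Of 8 genes of newly formed oligodendrocytes tested, 2 fell in the ONP over time (Itpr2 and Rras2) and none rose. Between the regions, 4 of these 8 genes were higher in the ONP at 7 days and none lower, with 3 estimates below 0. At 30 days 6 were higher and 2 lower, from -0.93 to 3.10. Of all genes, 6.81% were higher and 6.34% lower at 7 days, and 20% and 21.8% at 30 days. Gpr17, a receptor of that stage, was higher in the ONP by 3.16 ± 0.30 (SE, adjusted p = 0.000224) at 7 days and by 3.10 ± 0.27 (SE, adjusted p = 7.4e-07) at 30 days, and had -0.18 ± 0.12 (SE, adjusted p = 0.322) between the days in the ONP. The difference between these lists and the 32 members was not tested. Among 8 further transcription factors, Zfp536, Sox8 and Zfp488 fell in the ONP and Sox2, a stem cell and glial factor, rose (0.81 ± 0.18 SE, adjusted p = 0.0128).

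Some libraries differed in the balance of members, a pattern picked after its values were seen. The ratio of Olig2 to Olig1 in CPM was 0.0359 and 0.0344 in ONP libraries 1 and 2 at 30 days and between 0.117 and 0.142 in libraries 3 to 7. In the ONP at 7 days it was 0.041 and 0.0278 in libraries 1 and 2 and 0.0757 and 0.0617 in libraries 5 and 6. It ran from 0.023 to 0.148 in the ONH at 7 days and from 0.0311 to 0.0642 in the 7 ONH libraries at 30 days. ONP libraries 1 and 2 at 30 days thus lay in the range of the ONH of the same day. The ratio of Gal3st1 to Fa2h in the ONP at 7 days was 0.23 and 0.138 in libraries 1 and 2 and 0.352 and 0.312 in libraries 5 and 6. Gal3st1 had 39.4 and 34.0 CPM in ONP libraries 1 and 2 at 30 days and between 62.1 and 179.7 CPM in the other 5. The precursor gene C1ql1 had 10.7 and 6.601 CPM in the same libraries and between 21.2 and 28.6 CPM in the others. ONP libraries 1 and 2 at 30 days had totals within the range of their group. They were the lowest of it in the median log2 level, relative to the mean library, of genes of at least 60% GC minus that of genes of 45 to 50% GC (-0.202 and -0.253, the others -0.187 to 0.035) and the highest in mitochondrial counts (0.332% and 0.278%, the others 0.0812% to 0.189%). They also differed least from each other among the pairs of their group (chi-square per degree of freedom 19.4). In the ONP at 7 days the same GC difference was -0.127 and -0.195 in libraries 1 and 2 and -0.015 and 0.038 in libraries 5 and 6. Mitochondrial counts there were 0.255% and 0.302% against 0.28% and 0.206%. The longest transcripts of Olig2, Gal3st1 and C1ql1 hold 58.5%, 59.5% and 65.8% GC. Those of Olig1 and Fa2h, by which the ratios were divided, hold 61.1% and 55.2%, so that Olig1 is above Olig2 and Fa2h below Gal3st1. The part of these measures in the pattern was not tested.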
